A study of Mus musculus with 8 samples.

Results

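Regulatory T cells are CD4 T cells that restrain other immune cells, and the transcription factor Foxp3 maintains their identity. They take up IL-2 through a receptor whose high-affinity form contains CD25, the product of Il2ra, and they act through surface receptors such as CTLA-4 and cytokines such as IL-10. Retinoic acid is known to favor the induction of Foxp3 in T cells exposed to TGF-β, chiefly in the gut. The genes described here are Foxp3, Il2ra, Ctla4, Ikzf2, Ikzf4, Tnfrsf18, Tnfrsf4, Icos, Il10 and Lrrc32, which are 10 of the 51826 genes in the count table. They were chosen by name for their known roles in regulatory T cells, and each matched 1 Ensembl identifier. Several of them are not restricted to regulatory T cells, as Ctla4, Icos, Tnfrsf4 and Tnfrsf18 are also expressed by activated conventional T cells and Il10 by several kinds of leukocytes.

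Total splenocytes of 8 female Balb/c mice provided the RNA that was sequenced. Of these mice, 4 were labeled tRA (all-trans retinoic acid, the active metabolite of vitamin A) and 4 were labeled control. The tRA mice were dosed by mouth each day with 1 mg/kg body weight, starting at weaning and ending with sampling of the spleen at 3 months, and none of the mice had been exposed to pristane, the oil that induces lupus in this strain. The study describes the controls as dosed with vehicle, whereas the sample labels carry the tRA treatment text for all 8 mice, so the groups follow the sample titles. The comparison asks which splenic genes respond to tRA before lupus is induced.

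The counts on genes totaled between 30919272 and 37539631 per mouse, and no 2 mice of a group were so alike that a library could have been counted more than 1 time (chi-square per degree of freedom from 12.9 to 65.4). All 10 regulatory T cell genes had counts in all 8 mice, from 28 for Il10 to 2339 for Foxp3 in a single mouse, and all 10 passed the filter on low counts. Levels are given in CPM, the usual unit of counts relative to library size, after TMM normalization.

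The regulatory T cell genes showed no difference between tRA and control that exceeded the spread between mice. At a false discovery rate (FDR) under 0.1, the quasi-likelihood test of edgeR called 0 of the 10 genes and 0% of the 16484 genes tested. Of the 10 genes, 0 had an unadjusted p under 0.05, against 6.49% of all genes. DESeq2 likewise called 0 of the 10, against 27 (0.198%) of the 13625 genes to which it gave an adjusted p. It gave 0 of the 10 an unadjusted p under 0.05, against 4.18% of the 29805 genes with a p. The CPM of the groups overlapped for all 10 genes, while 3.54% of all genes had groups that did not overlap. Log2 fold changes (tRA over control) were positive for Foxp3, Il2ra, Ikzf4 and Icos and negative for the other 6 genes, with a median of -0.16 beside 0.0014 over all genes tested. In these bulk samples, fewer cells of a type and less RNA per cell cannot be told apart.

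What the group means do not show is a divided pattern among the tRA mice. In tRA mice 3 and 4, Foxp3, Ikzf4 and Icos were higher than in tRA mice 1 and 2, whereas Ctla4 and Il10 were lower. The control mice showed no such opposition. The same mice differed in other ways, whose part was not tested. TMM factors were 1.05 and 1.02 in tRA mice 3 and 4, the highest of the 8 mice, and 0.971 and 0.999 in tRA mice 1 and 2, with 24081 and 23961 genes detected beside 23289 and 23618. Macrophage and monocyte markers summed to 877, 1069, 1159.8 and 1167 CPM in tRA mice 1 to 4, all within the range of the controls (761, 1241, 1137 and 913 CPM in control mice 1 to 4). Lyz2 was the most abundant of them. For the others (Csf1r, Adgre1, Cd68, Mertk, Vcam1 and Cd163), named after their values were seen, tRA mouse 1 lay below every control. Adgre1, Vcam1 and Cd163 were higher in tRA mouse 3 than in every control. Cd163 was at 5.53, 17.3, 20.7 and 14.5 CPM in tRA mice 1 to 4 and 13.8, 18.4, 14.4 and 11.9 CPM in control mice 1 to 4. The summed CPM of the 10 genes was nevertheless alike in both groups, at 212 ± 22.3 (SD, n = 4) in control and 198 ± 14.1 (SD, n = 4) in tRA.

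**Figure D1:**
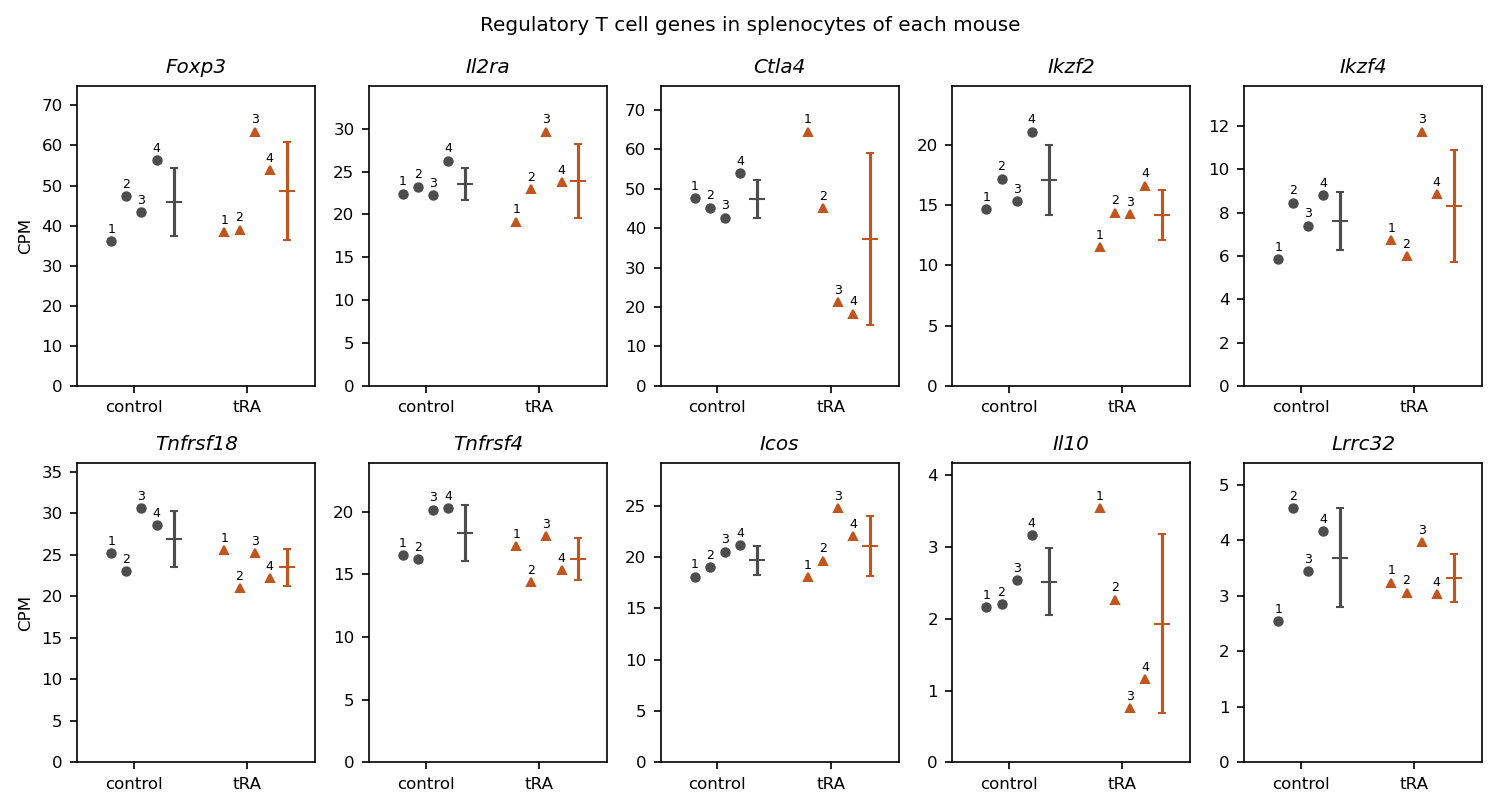
CPM (y axes, starting at 0) of each of the 10 regulatory T cell genes in the 4 control mice (gray circles) and the 4 tRA mice (orange triangles), with the replicate number above each point and bars for the mean ± SD. The groups overlap in all 10 panels, and Ctla4 and Il10 spread more widely among the tRA mice (SD 21.7 and 1.25 CPM) than among the controls (SD 4.83 and 0.462 CPM).

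Foxp3 (ENSMUSG00000039521) lies on chromosome X from 7573644 to 7595245 in GRCm38 and encodes the factor that defines the lineage. Its level was 36.2, 47.4, 43.3 and 56.4 CPM in control mice 1 to 4 and 38.3, 39.0, 63.4 and 53.8 CPM in tRA mice 1 to 4. The highest level was in tRA mouse 3 and the lowest in control mouse 1, and the groups overlapped from 38.3 to 56.4 CPM. The log2 fold change was 0.088 with a 95% confidence interval from -0.30 to 0.48 (edgeR, FDR 0.931). In linear terms this interval spans from 0.812-fold to 1.39-fold. The direction rested on single mice, since the log2 fold change was -0.069 without tRA mouse 3 and -0.010 without control mouse 1.

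The exons of Foxp3 overlap those of 4 other annotated genes, and the sources used here do not state whether the counting used the strand, so reads in the shared stretches are uncertain. The overlap is 853 bases with Flicr, a noncoding RNA on the same strand, and 590, 373 and 266 bases with Ccdc22, Gm36995 and Ppp1r3f on the opposite strand. The most abundant of these, Ppp1r3f, was counted at 4.21 CPM in control and 4.25 CPM in tRA, far below Foxp3 at 45.8 and 48.6 CPM. Flicr was at 1.46 and 1.55 CPM.

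Ikzf4 encodes Eos and Ikzf2 encodes Helios, zinc finger factors of the Ikaros family that are found in regulatory T cells with Foxp3. Ikzf4 (ENSMUSG00000002578, chromosome 10 from 128630843 to 128645991) was at 5.85, 8.47, 7.40 and 8.82 CPM in control mice 1 to 4 and 6.72, 5.98, 11.7 and 8.86 CPM in tRA mice 1 to 4. As for Foxp3, control mouse 1 was lowest and tRA mouse 3 highest, and the groups overlapped. Its log2 fold change was 0.13 (95% confidence interval from -0.34 to 0.60, edgeR FDR 0.914), and it was -0.086 without tRA mouse 3.

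Ikzf2 (ENSMUSG00000025997, chromosome 1 from 69531214 to 69687245) was at 14.7, 17.2, 15.3 and 21.1 CPM in control mice 1 to 4 and 11.5, 14.4, 14.3 and 16.6 CPM in tRA mice 1 to 4. The 3 lowest values were all from tRA mice, and tRA mouse 4 lay among the controls. Of the 10 genes, it had the lowest unadjusted p in edgeR's test (0.0860), with a log2 fold change of -0.27 (95% confidence interval from -0.58 to 0.045, FDR 0.780). The negative sign held in every fit that left out 1 mouse, with values from -0.35 to -0.15.

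Il2ra (ENSMUSG00000026770, chromosome 2 from 11642807 to 11693193) was at 22.4, 23.2, 22.2 and 26.3 CPM in control mice 1 to 4 and 19.2, 22.9, 29.6 and 23.8 CPM in tRA mice 1 to 4. Both the lowest and the highest values were in the tRA group, and the controls lay between them. The log2 fold change was 0.021 (95% confidence interval from -0.25 to 0.29, edgeR FDR 0.982), the smallest among the 10 genes. Without tRA mouse 3 it was -0.10.

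Ctla4 and Icos encode receptors of the CD28 family, of which CTLA-4 restrains T cells by binding CD80 and CD86 and ICOS costimulates them. Ctla4 (ENSMUSG00000026011, chromosome 1 from 60887000 to 60915832) was at 47.5, 45.2, 42.7 and 53.9 CPM in control mice 1 to 4, and at 64.4, 45.0, 21.2 and 18.3 CPM in tRA mice 1 to 4. The controls were close together, whereas tRA mouse 1 exceeded all of them, tRA mouse 2 lay among them and tRA mice 3 and 4 were below all of them. The coefficient of variation was 10.2% in control and 58.3% in tRA. The log2 fold change of -0.35 therefore had a wide 95% confidence interval, from -1.07 to 0.38 (edgeR, FDR 0.854). It was -0.75 without tRA mouse 1 (FDR 0.289 by edgeR, the lowest among the alternatives run), -0.15 without tRA mouse 3 and -0.12 without tRA mouse 4.

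Icos (ENSMUSG00000026009, chromosome 1 from 60977927 to 61000320) was at 18.1, 19.0, 20.5 and 21.2 CPM in control mice 1 to 4 and 18.1, 19.6, 24.8 and 22.0 CPM in tRA mice 1 to 4. Here tRA mice 3 and 4 were the highest of the 8 mice, the reverse of Ctla4. The log2 fold change was 0.10 (95% confidence interval from -0.14 to 0.34, edgeR FDR 0.867), and it was 0.015 without tRA mouse 3, 0.064 without control mouse 1 and 0.17 without tRA mouse 1. Icos follows Ctla4 on the same strand after 62094 bp with 0 protein-coding genes between them, and Cd28 lies 113640 bp on the other side of Ctla4. Cd28, the costimulatory receptor that shares its ligands with CTLA-4, was at 77.8 ± 8.31 CPM (SD, n = 4) in control and 90.8 ± 10.1 CPM (SD, n = 4) in tRA, a log2 fold change of 0.22 (edgeR, FDR 0.757) with overlapping groups.

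Il10 (ENSMUSG00000016529, chromosome 1 from 131019845 to 131024974) encodes the cytokine IL-10, which dampens antigen presentation and inflammatory cytokine output. It was at 2.17, 2.21, 2.54 and 3.17 CPM in control mice 1 to 4, and at 3.54, 2.27, 0.759 and 1.16 CPM in tRA mice 1 to 4. These levels stand for 80, 71, 88 and 98 counts in control and 116, 72, 28 and 38 counts in tRA. The order of the tRA mice resembled that for Ctla4, with tRA mouse 1 above all controls and tRA mice 3 and 4 below all of them. The log2 fold change was -0.39 (95% confidence interval from -1.26 to 0.49, edgeR FDR 0.860), and it ranged from -0.86 without tRA mouse 1 to -0.12 without tRA mouse 3.

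Tnfrsf18 and Tnfrsf4 encode GITR and OX40, TNF receptor family members that costimulate T cells and are carried at high levels by regulatory T cells. They are neighbors on chromosome 4, separated by 9551 bp with 0 protein-coding genes between them. Tnfrsf18 (ENSMUSG00000041954, 156026164 to 156028895) was at 25.2, 23.1, 30.6 and 28.6 CPM in control mice 1 to 4 and 25.5, 21.0, 25.2 and 22.2 CPM in tRA mice 1 to 4. Tnfrsf4 (ENSMUSG00000029075, 156013843 to 156016612) was at 16.5, 16.2, 20.1 and 20.3 CPM in control mice 1 to 4 and 17.2, 14.4, 18.0 and 15.3 CPM in tRA mice 1 to 4. For both genes control mice 3 and 4 were the highest and tRA mice 2 and 4 the lowest. Among the remaining mice, tRA mice 1 and 3 lay above control mice 1 and 2 for Tnfrsf4, and for Tnfrsf18 these 4 mice overlapped. For Tnfrsf18 the log2 fold change was -0.19 (95% confidence interval from -0.43 to 0.041, edgeR FDR 0.780). For Tnfrsf4 it was -0.17 (95% confidence interval from -0.42 to 0.077, edgeR FDR 0.793). Over 414 bases, the exons of Tnfrsf18 overlap those of the antisense gene Gm16008, counted at 0.536 CPM in control and 0.697 CPM in tRA.

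Lrrc32 (ENSMUSG00000090958, chromosome 7 from 98489283 to 98502181) encodes GARP, a surface protein that holds latent TGF-β. It was at 2.54, 4.58, 3.44 and 4.17 CPM in control mice 1 to 4 and 3.24, 3.05, 3.96 and 3.02 CPM in tRA mice 1 to 4. The tRA mice all lay inside the range of the controls, and the log2 fold change was -0.15 (95% confidence interval from -0.58 to 0.29, edgeR FDR 0.891). It was -0.29 without control mouse 1, -0.24 without tRA mouse 3, -0.080 without control mouse 4 and -0.023 without control mouse 2.

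**Figure D2:**
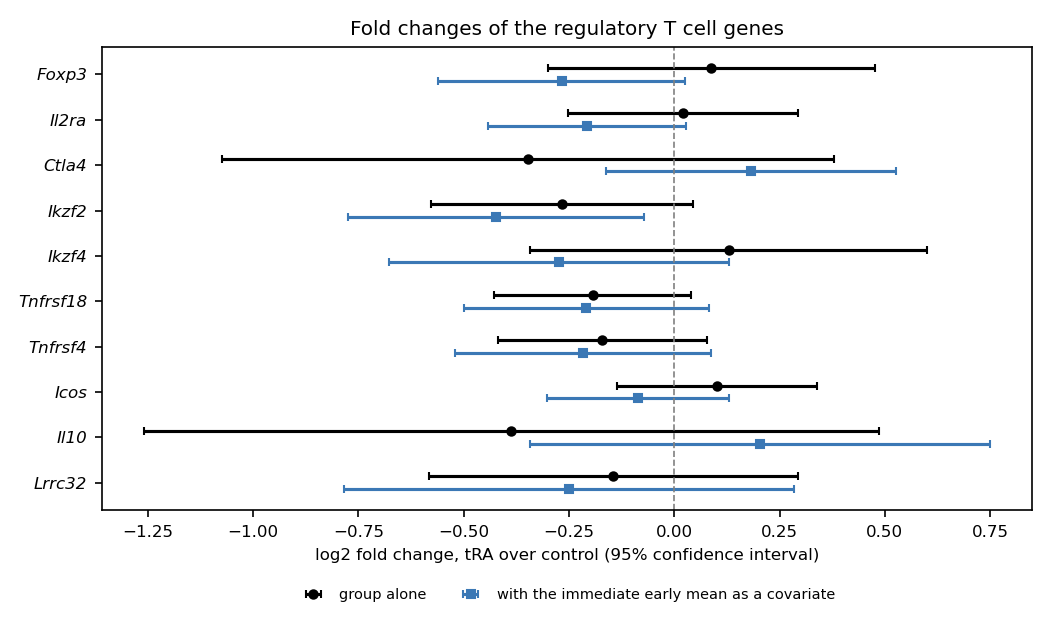
Log2 fold change (x axis, tRA over control, 0 dashed) of each regulatory T cell gene by edgeR's quasi-likelihood test, with bars for the 95% confidence interval. Black circles are the comparison of 4 tRA with 4 control mice and include 0 for all 10 genes, with the widest bars for Il10 and Ctla4. Blue squares have the mean of the immediate early genes in each mouse added as a covariate and leave Ikzf2 alone below 0. That mean was lowest in tRA mice 3 and 4, so the covariate was tied to group.

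Between genes, levels were compared per kilobase of merged exon length. This length includes stretches shared with other genes, among them 853 bases of Foxp3 shared with Flicr and 414 of Tnfrsf18 shared with Gm16008. How reads there were counted is not known. The levels of Foxp3 and Tnfrsf18 per kilobase may therefore be too low, and their places in the order are uncertain. In control mice the order of CPM per kilobase ran from Ctla4 (20.3 ± 2.07, SD, n = 4) through Tnfrsf18 (17.6 ± 2.21), Tnfrsf4 (13.4 ± 1.63), Foxp3 (10.01 ± 1.85), Icos (5.74 ± 0.408) and Il2ra (4.12 ± 0.327) to Il10 (1.92 ± 0.353), Ikzf2 (1.47 ± 0.248), Ikzf4 (1.27 ± 0.223) and Lrrc32 (0.785 ± 0.190). Neighbors in that order overlapped between mice for Ctla4 and Tnfrsf18, for Tnfrsf4 and Foxp3, and from Il10 through Ikzf2 and Ikzf4 to Lrrc32. The steps from Tnfrsf18 to Tnfrsf4, from Foxp3 to Icos, from Icos to Il2ra and from Il2ra to Il10 had no overlap among the controls. In the tRA mice the order by mean was the same except that Ikzf4 (1.39 ± 0.431) preceded Ikzf2 (1.22 ± 0.180). There, Ctla4 ranged from 7.86 to 27.6 CPM per kilobase and thus spanned the levels of Tnfrsf18, Tnfrsf4 and Foxp3.

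To ask whether the members vary together, each was related to Foxp3 across the 8 mice on the log2(CPM + 1) scale, which made 9 relations. The labels name no sequencing batch. Ikzf4, Icos and Il2ra followed Foxp3 closely, in each group and with both groups together. For Ikzf4, Pearson's r was 0.963 (exact permutation test, two-sided, p = 0.000149, adjusted p = 0.00134) and Spearman's rho was 0.952 (exact permutation p = 0.00114, adjusted p = 0.0103). For Icos, r was 0.893 (exact permutation p = 0.00260, adjusted p = 0.00826) and rho was 0.881 (exact permutation p = 0.00724, adjusted p = 0.0217). For Il2ra, r was 0.849 (exact permutation p = 0.00275, adjusted p = 0.00826) and rho was 0.881 (exact permutation p = 0.00724, adjusted p = 0.0217). None of these relations rested on the mice at the ends of the range, since r was 0.929 for Ikzf4, 0.765 for Icos and 0.821 for Il2ra without control mouse 1 and tRA mouse 3. Within the control and tRA groups, r was 0.951 and 0.975 for Ikzf4, 0.787 and 0.971 for Icos, and 0.868 and 0.882 for Il2ra.

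The other 6 relations did not pass. Lrrc32 (r = 0.630, exact permutation p = 0.0977, adjusted p = 0.176; rho = 0.595, p = 0.132, adjusted p = 0.298) and Ikzf2 (r = 0.521, exact permutation p = 0.189, adjusted p = 0.243; rho = 0.381, p = 0.360, adjusted p = 0.481) were positive in both groups. Without control mouse 1 and tRA mouse 3, r was 0.423 for Lrrc32 and 0.885 for Ikzf2. Within control and tRA, r was 0.852 and 0.661 for Lrrc32 and 0.950 and 0.563 for Ikzf2. For Tnfrsf4, r was 0.333 (exact permutation p = 0.409, adjusted p = 0.460) and rho 0.333 (p = 0.428, adjusted p = 0.481), with 0.287 without those mice and 0.526 and 0.442 within control and tRA. Tnfrsf18 showed little relation to Foxp3, with r = 0.107 (exact permutation p = 0.796, adjusted p = 0.796) and rho = -0.048 (p = 0.935, adjusted p = 0.935), and with 0.155 without those mice and 0.214 and 0.244 within the groups.

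Ctla4 and Il10 related to Foxp3 in opposite ways in the 2 groups. Over all 8 mice, r was -0.648 for Ctla4 (exact permutation p = 0.0896, adjusted p = 0.176; rho = -0.476, p = 0.243, adjusted p = 0.438) and -0.593 for Il10 (exact permutation p = 0.128, adjusted p = 0.192; rho = -0.357, p = 0.389, adjusted p = 0.481). Without control mouse 1 and tRA mouse 3 these were -0.476 and -0.382. Within control, r was 0.548 for Ctla4 and 0.801 for Il10, whereas within tRA it was -0.908 and -0.955. The difference between groups was not tested, and each within-group value rests on 4 mice.

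**Figure D3:**
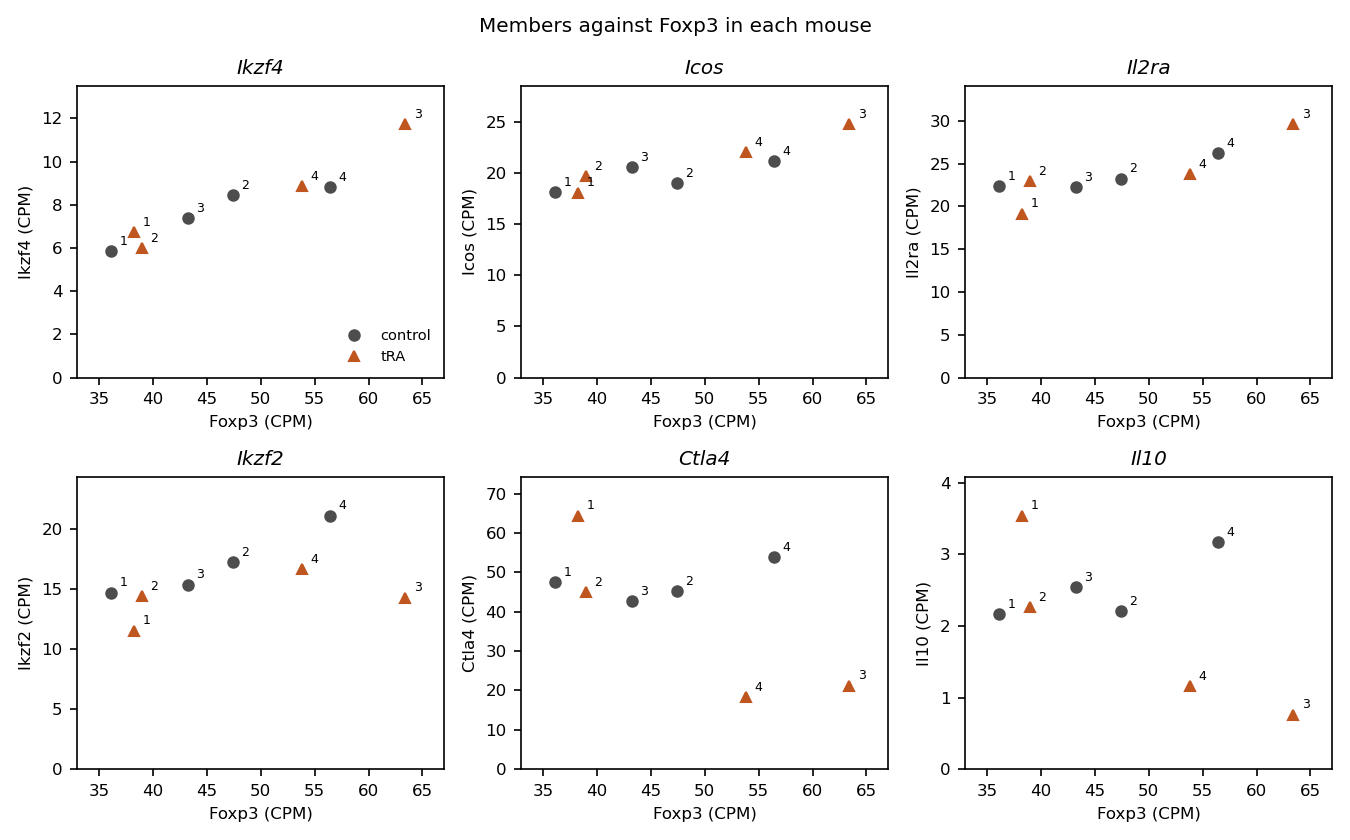
CPM of Ikzf4, Icos, Il2ra, Ikzf2, Ctla4 and Il10 (y axes, starting at 0) against CPM of Foxp3 (x axes, starting above 0) in each of the 4 control mice (gray circles) and 4 tRA mice (orange triangles), with replicate numbers beside the points. Ikzf4, Icos and Il2ra climb with Foxp3 across both groups (r from 0.849 to 0.963 on the log2 scale), while tRA mice 3 and 4 sit at high Foxp3 and low Ctla4 and Il10.

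Among the 16484 genes tested, those with the closest pattern to Foxp3 after centering each group on its mean over the 8 mice were 6530402F18Rik (r = 0.984), Tmem150b (0.980), Hgsnat (0.977), Itga8 (0.977) and Prrt2 (0.977). Ikzf4 ranked 16, Icos 99, Il2ra 302, Ikzf2 1267 and Lrrc32 1570 in that order. Tnfrsf4, Tnfrsf18, Il10 and Ctla4 ranked 3905, 6362, 13574 and 14220. With 8 mice and this many genes, high values of r arise readily, and the ranks are given as a description.

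The immediate early genes, such as Fos, Jun and Egr1, are transcribed within minutes of cell stimulation or stress, and their levels divided the tRA mice in the same way as Ctla4 and Il10. The summed level of the 10 listed genes was 16323, 15466, 14579.5 and 13276 CPM in control mice 1 to 4, and 15586, 12029.7, 5546 and 7033 CPM in tRA mice 1 to 4. Thus tRA mice 3 and 4, which had the lowest Ctla4 and Il10, stood apart from the other 6 mice in this sum. For Fosb, Jun and Egr1, named after their values were seen, all 4 tRA mice were below all 4 controls. Over all genes tested, 3.54% had groups that did not overlap, in either direction. The highest tRA value, in tRA mouse 1, was 624 CPM for Egr1 beside a lowest control value of 731 CPM, but it was close to the lowest control for Fosb (2842 and 2851 CPM) and Jun (2094 and 2122 CPM). Of the 10 genes, 10 had a negative log2 fold change, with a median of -0.49. By edgeR 0 passed and 3 had an unadjusted p under 0.05 (Fosb, Jun and Egr1). DESeq2 called 2 (Jun and Egr1), with 4 at that p. Fos, the most abundant over all 8 mice, was at 3184 CPM in control and 2216 CPM in tRA, and none was at 0.

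Since tRA mice 3 and 4 were separate in this sum, no correlation over all 8 mice is given. Among the other 6 mice, the mean log2(CPM + 1) of the immediate early genes had r = 0.425 with Ctla4 (exact permutation p = 0.399, adjusted over 10 relations p = 0.883; rho = 0.543, p = 0.297, adjusted p = 0.743) and r = 0.265 with Il10 (exact permutation p = 0.618, adjusted p = 0.883; rho = 0.029, p = 1.0, adjusted p = 1.0). Within the 4 control mice r was -0.708 for Ctla4 and -0.997 for Il10, and within the 4 tRA mice it was 0.961 and 0.991. The likeness of Ctla4 and Il10 to the immediate early sum therefore rested on tRA mice 3 and 4, and its part in their levels was not tested. Apart from Ctla4 and Il10, the other 8 members had negative r with the immediate early mean within both groups. For the genes that varied together, r within control and tRA was -0.831 and -0.982 for Foxp3, -0.636 and -0.916 for Ikzf4, -0.889 and -0.982 for Icos, and -0.878 and -0.902 for Il2ra. It was -0.856 and -0.703 for Ikzf2, -0.424 and -0.548 for Lrrc32, -0.814 and -0.267 for Tnfrsf4, and -0.604 and -0.057 for Tnfrsf18. Among the 6 mice other than tRA mice 3 and 4, r was -0.289 for Foxp3 (exact permutation p = 0.582, adjusted p = 0.883; rho = -0.543, p = 0.297, adjusted p = 0.743). For Ikzf4 it was 0.018 (exact permutation p = 0.978, adjusted p = 0.978; rho = -0.257, p = 0.658, adjusted p = 1.0). For Icos it was -0.655 (exact permutation p = 0.160, adjusted p = 0.799; rho = -0.829, p = 0.0583, adjusted p = 0.583) and for Il2ra -0.645 (exact permutation p = 0.160, adjusted p = 0.799; rho = -0.60, p = 0.242, adjusted p = 0.743). None of these relations passed among the 6 mice, and the part of the immediate early level in the covariation with Foxp3 was not tested. These relations were chosen after seeing the data.

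When the immediate early mean was entered as a covariate, also chosen after seeing the data, 6 of the 10 regulatory T cell genes changed sign. The log2 fold change was then 0.18 for Ctla4 (95% confidence interval from -0.16 to 0.53, edgeR FDR 0.983) and 0.20 for Il10 (from -0.34 to 0.75, FDR 0.996). It was -0.27 for Foxp3 (from -0.56 to 0.027, FDR 0.894), -0.27 for Ikzf4, -0.21 for Il2ra and -0.086 for Icos. Ikzf2 was at -0.42 (from -0.78 to -0.072, FDR 0.877). With this covariate 0 of the 10 genes and 0 of all genes tested passed in edgeR's test, with 1 and 929 at an unadjusted p under 0.05. The covariate ranged from 9.60 to 9.78 in the controls, and was 9.87, 9.48, 8.12 and 8.48 in tRA mice 1 to 4. It was thus tied to group through tRA mice 3 and 4. Its part and that of tRA cannot be told apart in this fit.

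**Figure D4:**
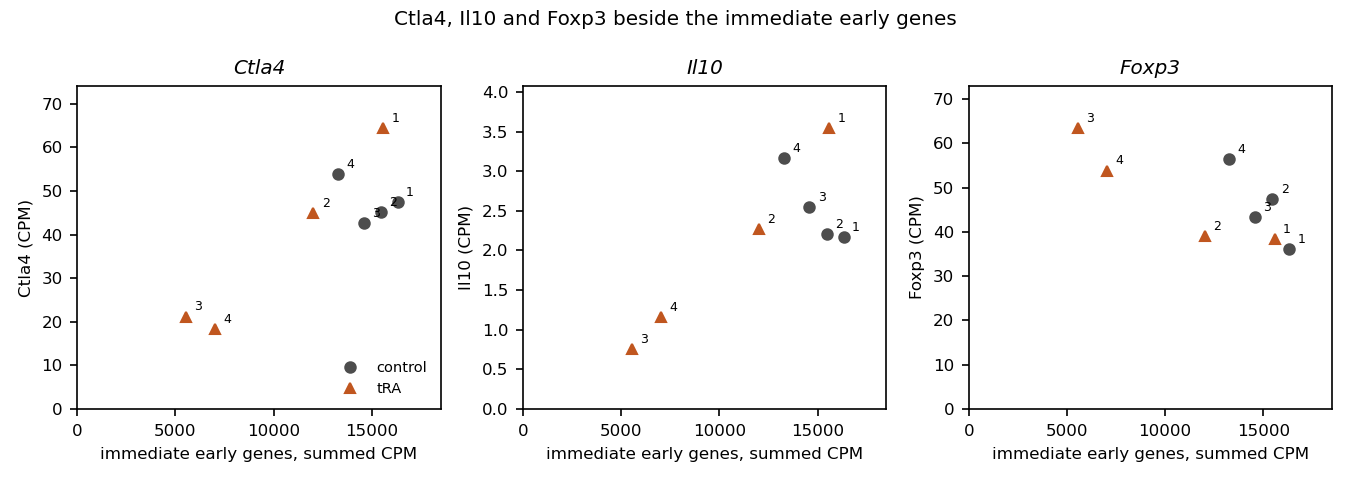
CPM of Ctla4, Il10 and Foxp3 (y axes, starting at 0) against the summed CPM of 10 immediate early genes (x axes) in each of the 4 control mice (gray circles) and 4 tRA mice (orange triangles), with replicate numbers beside the points. In tRA mice 3 and 4, where the sum was 5546 and 7033 CPM, Ctla4 and Il10 were lowest, and among the other 6 mice the sum ranged from 12029.7 to 16323 CPM.

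T cell content of the samples was compared next. The 10 T cell markers summed to 1807, 1882, 2215 and 2191 CPM in control mice 1 to 4 and 2148, 2079.75, 2175 and 2109 CPM in tRA mice 1 to 4, and the most abundant, Lck, was at 531 and 505 CPM. Of these 10 genes, 8 had a positive log2 fold change, the median was 0.11, 0 passed and 0 had an unadjusted p under 0.05 in edgeR's test, and DESeq2 called 0 with 2 at that p. Cd3e had a log2 fold change of 0.21 (edgeR FDR 0.757), Cd4 of 0.18 (FDR 0.757) and Cd8a of 0.13 (FDR 0.872). The groups overlapped for these 3 genes, and no marker was at 0.

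Relative to T cell RNA, the groups separated for Tnfrsf18 and Tnfrsf4. The mean denominators were themselves higher in tRA, and their part in the separation was not tested. Cd4 was at 235 ± 17.9 CPM (SD, n = 4) in control and 265 ± 22.1 CPM (SD, n = 4) in tRA, and the sum of Cd3d, Cd3e and Cd3g at 419 ± 50.2 and 449.6 ± 11.8 CPM, with overlapping groups for both. The log2 ratio of the group means was 0.18 for Cd4 and 0.10 for the Cd3 sum, which lowers ratios to them in tRA on average. Tnfrsf4 amounted to 4.39%, 4.33%, 4.35% and 4.39% of the summed CPM of Cd3d, Cd3e and Cd3g in control mice 1 to 4 and to 3.79%, 3.25%, 3.88% and 3.49% in tRA mice 1 to 4. The controls were nearly identical, and all tRA mice were below them. Tnfrsf18 amounted to 6.42% ± 0.278 (SD, n = 4) of that sum in control and 5.22% ± 0.388 (SD, n = 4) in tRA, again with every tRA mouse below every control. Relative to Cd4, the same held for Tnfrsf4 (7.79% ± 0.767 and 6.13% ± 0.600, SD, n = 4 each), Tnfrsf18 (11.5% ± 1.38 and 8.87% ± 0.805) and Ikzf2 (7.26% ± 0.804 and 5.37% ± 0.820). For the other 7 genes the groups overlapped on both scales, and for Ikzf2 on the Cd3 scale (4.10% ± 0.613 and 3.16% ± 0.517). Over all 16484 genes tested, the groups did not overlap for 3.62% on the Cd3 scale and 5.05% on the Cd4 scale, with every tRA mouse below every control for 3.39% and 4.90%.

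The ratios themselves were not tested. In a fit with the summed T cell marker counts as library size, edgeR called 0 of the 10 genes, with 3 at an unadjusted p under 0.05, against 6.28% of all genes in that fit. These were Tnfrsf18 (log2 fold change -0.27, FDR 0.754 by edgeR), Ikzf2 (-0.34, FDR 0.777) and Tnfrsf4 (-0.24, FDR 0.777). On this scale the median of all genes was -0.081 and that of the 10 genes -0.23. Foxp3 amounted to 9.60%, 12.7%, 9.35% and 12.2% of the Cd3 sum in control mice 1 to 4 and 8.44%, 8.83%, 13.7% and 12.3% in tRA mice 1 to 4. Its spread between mice, with tRA mice 3 and 4 above tRA mice 1 and 2, was therefore present per T cell RNA as well.

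IL-2 signaling sustains regulatory T cells through STAT5. Of 12 genes listed for it, 6 had a positive and 6 a negative log2 fold change, with a median of -0.010, 0 passed in edgeR's test and 0 had an unadjusted p under 0.05, as with DESeq2 (0 and 0). Il2 was near the limit of detection at 0.615 ± 0.161 CPM (SD, n = 4) in control and 0.682 ± 0.295 CPM (SD, n = 4) in tRA, or 10 to 36 counts per mouse. The receptor chains Il2rb and Il2rg had log2 fold changes of 0.016 and 0.054, and Stat5a and Stat5b of 0.0089 and 0.039. Among listed genes that STAT5 can induce, 3 named after their values were seen had negative log2 fold changes with overlapping groups, namely Socs1 (-0.44, edgeR FDR 0.780), Cish (-0.24, FDR 0.757) and Socs3 (-0.15, FDR 0.882). Socs1 was at 23.6, 20.9, 25.4 and 22.5 CPM in control mice 1 to 4 and 27.2, 16.7, 12.4 and 12.1 CPM in tRA mice 1 to 4, lowest in tRA mice 3 and 4. The most abundant gene, Mcl1, was at 857 CPM in control and 839 CPM in tRA, a log2 fold change of -0.029. Bcl2, also named after its values were seen, was at -0.030, so these 2 listed genes were near 0.

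TGF-β induces Foxp3 in peripheral T cells, and GARP presents it. Of 13 genes of this pathway, 7 had a positive and 6 a negative log2 fold change, with a median of 0.011. By edgeR 0 passed and 2 had an unadjusted p under 0.05, and DESeq2 gave 0 and 2. Tgfb1 was at 252 CPM in control and 248 CPM in tRA, a log2 fold change of -0.025, and the most abundant, Tgfbr2, was at 299 and 311 CPM (0.059). The 2 genes were Tgfb3 (log2 fold change -0.43, edgeR FDR 0.757) and Itgb8 (-0.69, FDR 0.757), both named after their values were seen. Itgb8 encodes an integrin subunit that releases TGF-β, and it was at 1.24 CPM in control and 0.767 CPM in tRA with every tRA mouse below every control. Its counts were low, from 32 to 56 in the controls and from 17 to 31 in the tRA mice. The lowest control and the highest tRA mouse were close, at 0.925 and 0.882 CPM. Smad4, also named after its values were seen, was the other gene of the pathway whose groups did not overlap, in the opposite direction, at 73.2 CPM in control and 79.5 CPM in tRA (log2 fold change 0.12, edgeR FDR 0.780). Over all genes tested, the groups did not overlap for 3.54%, in either direction.

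Of 23 regulators and partners of Foxp3, 16 had a positive and 7 a negative log2 fold change, with a median of 0.059, and 0 passed with 0 at an unadjusted p under 0.05 by both edgeR and DESeq2. Runx1, a partner of Foxp3 in its protein complex, had a log2 fold change of -0.064, and Foxo1, which drives its transcription, of 0.030. The most abundant was Ets1, at 1306 CPM in control and 1408 CPM in tRA.

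A further 24 surface and effector genes of regulatory T cells included 23 that could be tested, Areg having too few counts. Of these, 14 had a positive and 9 a negative log2 fold change, with a median of 0.029. By edgeR 0 passed and 3 had an unadjusted p under 0.05, and DESeq2 gave 0 and 3. The 3, named after their values were seen, were Ccr8 (log2 fold change -0.71), Fgl2 (0.45) and Ebi3 (-0.38), each with an edgeR FDR of 0.757 and overlapping groups. Nrp1, a surface marker of thymus-derived regulatory T cells, had a log2 fold change of -0.33 (edgeR FDR 0.854). The folate receptor gene Izumo1r was at -0.16, Itgae, which encodes CD103, at 0.25, and Entpd1, which encodes CD39, at 0.13. Tigit and Gpr83 were at 0.0094 and 0.029, and the most abundant, Tnfrsf1b, was at 113 CPM in control and 119 CPM in tRA.

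Of 8 ligands and partners of the member receptors, 3 had a positive and 5 a negative log2 fold change, with a median of -0.031. By edgeR 0 passed and 1, Cd28, had an unadjusted p under 0.05, while DESeq2 gave 0 and 2. Cd80 and Cd86, the ligands of CTLA-4, had log2 fold changes of -0.18 and -0.060. The most abundant, Icosl, which encodes the ligand of ICOS, was at 348 CPM in control and 369 CPM in tRA (0.086). Tnfsf4 and Tnfsf18, which encode the ligands of OX40 and GITR, were at 2.03 and 0.543 CPM in control and 1.82 and 0.537 CPM in tRA. Il10ra, the ligand-binding chain of the IL-10 receptor, had a log2 fold change of -0.24 (edgeR, FDR 0.757).

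Other cell types that a spleen suspension holds were followed by marker lists, and edgeR called 0 genes in each of them. For B cells the 8 markers had a median log2 fold change of -0.0092 (0 at an unadjusted p under 0.05 by edgeR, and 0 called with 1 at that p by DESeq2), and the most abundant, Cd79a, was at 1396 CPM in control and 1271 CPM in tRA. Follicular helper T cells, which share Icos with regulatory T cells, had 6 of 7 markers tested, with a median of -0.0076 and Cxcr5 as the most abundant at 252 and 273 CPM. Their markers summed to 356, 358, 356 and 366 CPM in control mice 1 to 4 and 409, 380, 407 and 368 CPM in tRA mice 1 to 4. Every tRA mouse lay above every control in this sum, which was not tested, whereas the groups overlapped for each marker alone. Cxcr5 and Bcl6 (92.0 and 105 CPM) supplied most of the sum. Log2 fold changes were positive for Cxcr5 (0.11), Bcl6 (0.19) and Tox2 (0.11). They were negative for Il21 (-0.12), Sh2d1a (-0.16) and Pdcd1 (-0.21). These markers other than Cxcr5 were named after their values were seen. NK cells had 6 of 7 tested with a median of 0.0028 and Gzma at 150.2 and 137 CPM, and macrophages and monocytes had 7 of 7 with a median of -0.0093 and Lyz2 at 587 and 644 CPM. For these 3 lists, 0 genes had an unadjusted p under 0.05 by edgeR, and DESeq2 called 0 with 0 at that p.

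Markers of megakaryocytes and platelets had 5 of 8 tested and a median of -0.095, and the most abundant, Itgb3, was at 125 and 131 CPM. Endothelial and stromal markers had 7 of 8 tested and a median of 0.0017, with Pecam1 at 239.8 and 240.1 CPM. By edgeR 0 genes of both lists had an unadjusted p under 0.05, and DESeq2 called 0 in both with 1 and 0 at that p. No listed gene was at 0 in all 8 mice.

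The promoters of the members were read from RefSeq (GRCm38.p6) as 250 bases before to 50 after each start. The table held 6 promoters of 5 members, namely Ctla4, Il2ra, Tnfrsf4, Tnfrsf18 and 2 of Foxp3. Entries for Ikzf2, Ikzf4, Icos, Il10 and Lrrc32 were not used here. Both strands were searched for AGGTCA, the half-site bound by retinoic acid receptors, for its direct repeats spaced by 1, 2 or 5 bases, for TTCNNNGAA, the motif bound by STAT factors, and for GGAAAN, the core bound by NFAT. AGGTCA occurred in 1 of the 6, the Foxp3 promoter that starts at 7580233, where it stood 1 time on each strand, and 16.3% of the 32851 promoters held it. The direct repeats occurred in 0 of the 6 and in 0.0396%, 0.00913% and 0.00913% of all promoters. TTCNNNGAA occurred in that Foxp3 promoter and in the Tnfrsf18 promoter, and 8.30% of all promoters held it. GGAAAN occurred in all 6 and in 61.2% of all promoters.

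The sequences of Foxp3 and Il2ra, which varied together, and of Ctla4, which varied in the opposite way among the tRA mice, are shown 5′ to 3′ on the plus strand. Capitals mark AGGTCA or TGACCT, TTCNNNGAA, and GGAAA or TTTCC, and in the Foxp3 promoter from 7580233 a TTTCC overlaps the TTCNNNGAA. A match describes the letters in this window and no binding was measured.
Foxp3, chrX:7579426-7579725: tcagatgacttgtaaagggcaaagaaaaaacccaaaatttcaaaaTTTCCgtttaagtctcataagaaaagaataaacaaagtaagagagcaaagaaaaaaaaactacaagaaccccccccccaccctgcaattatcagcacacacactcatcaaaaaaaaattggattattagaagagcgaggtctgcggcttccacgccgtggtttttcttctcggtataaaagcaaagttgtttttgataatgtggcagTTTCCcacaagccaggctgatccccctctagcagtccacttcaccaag
Foxp3, chrX:7580233-7580532: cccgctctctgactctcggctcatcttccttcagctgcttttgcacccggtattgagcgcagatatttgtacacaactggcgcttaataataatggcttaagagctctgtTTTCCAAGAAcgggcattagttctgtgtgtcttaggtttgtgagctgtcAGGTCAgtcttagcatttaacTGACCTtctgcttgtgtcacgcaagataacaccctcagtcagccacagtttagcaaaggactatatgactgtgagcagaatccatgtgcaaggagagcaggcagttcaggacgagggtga
Il2ra, chr2:11642542-11642841: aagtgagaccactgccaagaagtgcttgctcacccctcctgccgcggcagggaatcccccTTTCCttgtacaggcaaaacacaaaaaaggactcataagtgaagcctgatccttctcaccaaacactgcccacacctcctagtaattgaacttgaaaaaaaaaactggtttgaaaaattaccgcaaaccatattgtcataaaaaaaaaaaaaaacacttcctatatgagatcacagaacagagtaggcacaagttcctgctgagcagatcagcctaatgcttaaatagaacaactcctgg
Ctla4, chr1:60908775-60909074: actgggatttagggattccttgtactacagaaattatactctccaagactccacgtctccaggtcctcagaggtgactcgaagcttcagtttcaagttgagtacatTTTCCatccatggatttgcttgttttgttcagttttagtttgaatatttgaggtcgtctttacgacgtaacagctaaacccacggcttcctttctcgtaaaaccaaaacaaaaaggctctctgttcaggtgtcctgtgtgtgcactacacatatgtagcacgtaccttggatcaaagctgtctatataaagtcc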

How the data were processed

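RNA of total splenocytes from 8 mice, 4 per group, was sequenced by the authors, and the deposited table holds raw read counts for 51826 Ensembl genes in each mouse. The submitters' processing notes name STAR 2.5.2b, featureCounts 1.5.1, GRCm38 and DESeq2 1.26.0, whereas the methods of the study name other trimming, alignment and counting tools (Btrim, Tophat2 and HTSeq), so which of them made the counts is uncertain. The authors' deposited DESeq2 comparison, with base mean, log2 fold change, standard error, statistic, p and adjusted p, was not used. Groups follow the sample titles. All 8 columns of counts were used, with totals from 30919272 to 37539631, and 4 mice per group limit the precision.

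Counts were fitted with edgeR 4.0.16 in R 4.3.3 (limma 3.58.1), with TMM normalization, filterByExpr (minimum count 10), group as the only term and the two-sided quasi-likelihood F test. Genes were called at a Benjamini-Hochberg FDR under 0.1 over the 16484 genes tested. The common biological coefficient of variation was 0.152 and the lowest FDR was 0.135. Tested on simulated data with 200 changed genes, the fit recovered 71.6% of the 67 genes changed by a log2 of 1. Correlations used log2(CPM + 1), exact permutation over all pairings (two-sided) and Benjamini-Hochberg adjustment within each family of relations. Levels per kilobase used merged exons of GENCODE M21, which holds 51633 of the genes and lacks 193.

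The members and the lists were chosen with earlier results of these data known. The lists beside the 10 members numbered 13, for IL-2 signaling, the TGF-β pathway, Foxp3 regulators and partners, other regulatory T cell surface and effector genes, ligands and partners of the member receptors, immediate early genes, and markers of T cells, follicular helper T cells, B cells, NK cells, macrophages and monocytes, megakaryocytes and platelets, and endothelial and stromal cells. Genes named in the text are all members, genes whose exons overlap theirs, the denominators of the ratios, a fixed set from the lists, listed genes that were called, the most abundant gene of each list, and the 5 genes with the highest group-centered r with Foxp3. Others are named as chosen after their values were seen.

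Alternatives were DESeq2 1.42.0, RLE normalization, library size alone, the T cell marker total as library size, no filter, at least 10 counts in every mouse, protein-coding genes only, a replicate block, each mouse left out in turn and, chosen after seeing the data, the immediate early mean as a covariate. Python 3.11.15 with numpy 2.4.6, scipy 1.17.1, pandas 2.3.3 and matplotlib 3.10.9 did the rest.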

Additional observations from a re-analysis of the deposited data

Results flagged for a closer look

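The 10 regulatory T cell genes gave 20 groups of 4 mice, and in each the gap between an end mouse and its nearest neighbor was set against the whole range (Dixon's ratio, 95% level). A mouse stood apart by this measure in 0 of them, where chance gives about 1.0.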

How the results depend on the processing

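The 10 regulatory T cell genes gave 170 log2 fold changes over 17 alternatives, of which 157 kept their sign and 13 did not. No alternative called any of the 10 genes, with an FDR from 0.693 to 0.999 for Foxp3, from 0.289 to 0.999 for Ctla4 and from 0.343 to 0.999 for Il10. Over all genes, the count called was 27 with DESeq2, 1 with the T cell marker total as library size and 6 with no filter on low counts. It ranged from 0 to 3 with 1 mouse left out, the 3 being without tRA mouse 4, and the count at an unadjusted p under 0.05 by edgeR then ranged from 657 without tRA mouse 4 to 2105 without tRA mouse 1. With the T cell marker total, Il2ra was at -0.061. With 1 mouse left out, the log2 fold change ranged from -0.069 to 0.20 for Foxp3, from -0.10 to 0.11 for Il2ra and from -0.086 to 0.25 for Ikzf4. Negative values were those of Foxp3 without control mouse 1 (-0.010) or tRA mouse 3, of Il2ra without control mouse 1 (-0.0018), control mouse 3 (-0.012) or tRA mouse 3, and of Ikzf4 without tRA mouse 3. The members' median ranged from -0.22 to -0.099 with 1 mouse left out, and it was -0.23 with the T cell marker total. With the immediate early mean as a covariate, chosen after seeing the data, Foxp3 was at -0.27, Il2ra at -0.21, Ctla4 at 0.18, Ikzf4 at -0.27, Icos at -0.086 and Il10 at 0.20. This covariate was itself tied to group, being lowest in tRA mice 3 and 4. With a replicate block pairing mice of the same number, 0 genes and 0 members were called by edgeR (1200 and 1 at an unadjusted p under 0.05) and the members' median was -0.15. Correlations between same-numbered mice were 0.157, -0.023, -0.014 and 0.259. They lay within the range of those between mice of different number, from -0.283 to 0.271. These values do not settle whether same-numbered mice were paired, and the sample titles name no pairing. The cause of these differences was not tested.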

Other observations

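The genes with the closest pattern to Ctla4 over the 8 mice, after centering each group on its mean, were looked up after the values of Ctla4 had been seen. They were Fasl (r = 0.991), Bcar3 (0.991), Ptger4 (0.986), Cd83 (0.981) and Nr4a2 (0.980). Il10 ranked 75 (0.932) among the genes tested. Centering does not remove the spread of Ctla4 among the tRA mice (SD 21.7 CPM, beside 4.83 CPM in control). These r therefore rest largely on the difference between tRA mice 1 and 2 and tRA mice 3 and 4. With 8 mice and this many genes, high r arises readily, and the ranks are a description. Cd83 was at 273, 222, 230.2 and 269 CPM in control mice 1 to 4 and at 462, 268, 115 and 122 CPM in tRA mice 1 to 4. Nr4a2 was at 61.5, 68.7, 54.8 and 82.5 CPM in control mice 1 to 4 and at 110.4, 76.6, 10.8 and 12.5 CPM in tRA mice 1 to 4. For both genes tRA mouse 1 was highest and tRA mice 3 and 4 were lowest, and the edgeR FDR was 0.990 for Cd83 and 0.920 for Nr4a2.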
